A study of Mus musculus with 8 samples.

Results

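The genes described here are 33 enzymes and regulators of cholesterol and fatty acid synthesis, measured among 19938 genes on expression arrays of mouse embryonic fibroblasts. They were taken by gene symbol from the array's annotation, with no threshold on their measured values. The list was drawn up with earlier results of these data known, so counts over its members are descriptions and not tests. Where a gene had several probe sets, the one with the highest mean over the 8 samples stood for it. All 33 were measured: 17 belong to the sterol branch, 13 to the fatty acid branch, and 3 are regulators of both. The study compared fibroblasts that express PKM2 with fibroblasts that express PKM1, the alternative splice forms of the muscle-type pyruvate kinase gene Pkm, which catalyses the last step of glycolysis. Cells of line A (MEF10) and line B (MEF16) were either left without tamoxifen and labelled PKM2 expressing, or given tamoxifen and labelled PKM1 expressing, with 2 samples in each of the 4 groups. In this kind of design tamoxifen usually activates a recombinase. The alleles, the strain, the sex, the dose and the duration are not given in the sources used here. No group received tamoxifen and kept PKM2, so the drug and the isoform switch cannot be told apart. Whether the pair in each group came from independent cultures is not in the labels. The p-values may therefore reflect technical spread alone, and the number of arrays limits the precision.

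Cholesterol is built from acetyl-CoA through mevalonate, isoprenoid units and squalene, and fatty acids are built from the same acetyl-CoA through malonyl-CoA. Both routes are switched on at the level of transcription by the SREBP factors, which are held in the endoplasmic reticulum by INSIG proteins while sterols are plentiful and travel to the Golgi to be cleaved when sterols run low. Dividing fibroblasts depend on these routes, or on lipid from serum, for new membrane.

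The promoters of the members show what the genes share apart from their expression. RefSeq promoter sequences (GRCm38.p6) were held for 27 of the 33 members, with 34 start sites, and the 250 bases before each start were searched on both strands. Fdps, Fdft1, Sqle, Scd1, Scd2 and Fads1 are not among them. The pentamer CCAAT, to which the SREBP partner NF-Y binds, was found before 24 of the 34 starts (70.6%), against 33.8% of all 32851 promoters and 34.5% of the promoters of the genes tested here. The letters GGGCGG, the core bound by Sp1, were also found before 24 of them (70.6%), against 32.7% of all promoters and 45.5% of those of the tested genes. A short form of the sterol regulatory element, TCACNCCA, lay before 3 starts (8.82%), those of Hmgcs1, Msmo1 and Srebf2, against 3.67% of all promoters. A longer form of that element, which adds 1 base at each end, was in 0 of the 34 windows and in 0.192% of all promoters. A match is a description of these letters and not evidence of binding. The promoters of 4 members are shown, of which Hmgcs1, Insig1 and Elovl6 passed the test over both lines described below and Msmo1 did not. Of these promoters 3 hold such letters and 1, that of the member with the lowest adjusted p, holds none. Each is printed on the strand of its gene, and capitals mark CCAAT (read as ATTGG on the other strand) and TCACNCCA. Hmgcs1 lies at chr13:119690101-119690350 on the plus strand, Msmo1 at chr8:64733579-64733828 on the minus strand, Insig1 at chr5:28071162-28071411 on the plus strand and Elovl6 at chr3:129532136-129532385 on the plus strand.
Hmgcs1: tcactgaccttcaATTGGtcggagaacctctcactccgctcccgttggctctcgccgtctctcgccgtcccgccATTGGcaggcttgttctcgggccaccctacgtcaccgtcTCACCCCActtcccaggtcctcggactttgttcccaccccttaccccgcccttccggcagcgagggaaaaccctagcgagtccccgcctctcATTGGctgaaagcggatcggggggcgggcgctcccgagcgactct
Msmo1: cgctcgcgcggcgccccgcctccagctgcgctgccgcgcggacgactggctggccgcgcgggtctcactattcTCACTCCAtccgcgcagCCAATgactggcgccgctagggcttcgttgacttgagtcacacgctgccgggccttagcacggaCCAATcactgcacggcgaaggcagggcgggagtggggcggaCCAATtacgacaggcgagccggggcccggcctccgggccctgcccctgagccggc
Insig1: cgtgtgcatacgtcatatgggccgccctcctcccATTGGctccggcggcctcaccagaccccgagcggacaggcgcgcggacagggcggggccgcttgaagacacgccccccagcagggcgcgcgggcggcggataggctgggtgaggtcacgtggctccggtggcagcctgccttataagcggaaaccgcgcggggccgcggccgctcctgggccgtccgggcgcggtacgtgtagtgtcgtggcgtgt
Elovl6: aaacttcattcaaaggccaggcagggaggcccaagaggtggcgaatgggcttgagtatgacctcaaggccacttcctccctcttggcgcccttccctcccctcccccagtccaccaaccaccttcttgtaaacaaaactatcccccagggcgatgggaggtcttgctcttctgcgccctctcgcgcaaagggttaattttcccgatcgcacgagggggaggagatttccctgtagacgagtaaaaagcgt

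The Hmgcs1 promoter held 3 CCAAT matches, which began 237, 176 and 45 bases before the start, and 1 sterol element match 137 bases before it. Msmo1 likewise held 3 CCAAT matches, at 160, 96 and 55 bases, with the sterol element match at 177 bases. Insig1 held 1 CCAAT match at 216 bases. In the window before Elovl6 none of the 4 motifs was found, which says only that these letters are absent from it. Hsd17b7, whose measured difference with tamoxifen was above 0, held 3 CCAAT matches, so these letters were also present before a gene that was not lower.

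All values are log2 expression values. The medians of the 8 arrays lay between 7.17 and 7.24, and the 2 samples of a group correlated across genes with r between 0.9894 and 0.9974. Of 10 fibroblast markers, 2 (Dcn and Lum) rose with tamoxifen over both lines, against 0.808% of all genes. All 10 lay above the median of all values, with a mean of 10.31 to 10.64 per sample. Of 8 epithelial markers, 7 lay below it, with means of 6.69 to 6.81 and the milk protein Csn2 at 5.64 to 5.80. This bears on the labels, some of which speak of mammary tumour although the titles and the series' design speak of embryonic fibroblasts. Pkm has 2 probe sets, neither of which is known here to read 1 isoform alone. By the brighter one the gene was at 11.19 and 10.99 without and 10.86 and 10.74 with tamoxifen in line A, and at 10.82 and 11.21 without and 11.41 and 10.75 with it in line B. Its difference over both lines was -0.11 (SE 0.15, limma adjusted p = 0.883), and this gene-level value does not check the labelled switch.

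Tamoxifen over both lines, with the line as a term in the fit, asked which members differed between PKM1-labelled and PKM2-labelled cells. Elovl6, Hmgcs1, Insig1 and Fdps fell, by 1.51-fold, 1.37-fold, 1.30-fold and 1.26-fold. No member rose. Of all genes tested, 0.512% passed as lower and 0.808% as higher at an adjusted p under 0.05. The log2 difference was below 0 for 31 of the 33 members, against 55.4% of all genes, with a median of -0.23 against -0.01. At an unadjusted p under 0.05, 16 members were lower, against 4.32% of all genes. That count was 9 without line A sample 2 with tamoxifen, 10 without line B sample 2 with tamoxifen and 24 without line B sample 1 with tamoxifen. In 5 members (Hmgcs1, Pmvk, Fdps, Acaca and Elovl6) every sample with tamoxifen lay below every sample without it, against 2.74% of all genes. In bulk samples such as these, fewer cells of a type and less RNA per cell cannot be told apart.

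**Figure D1:**
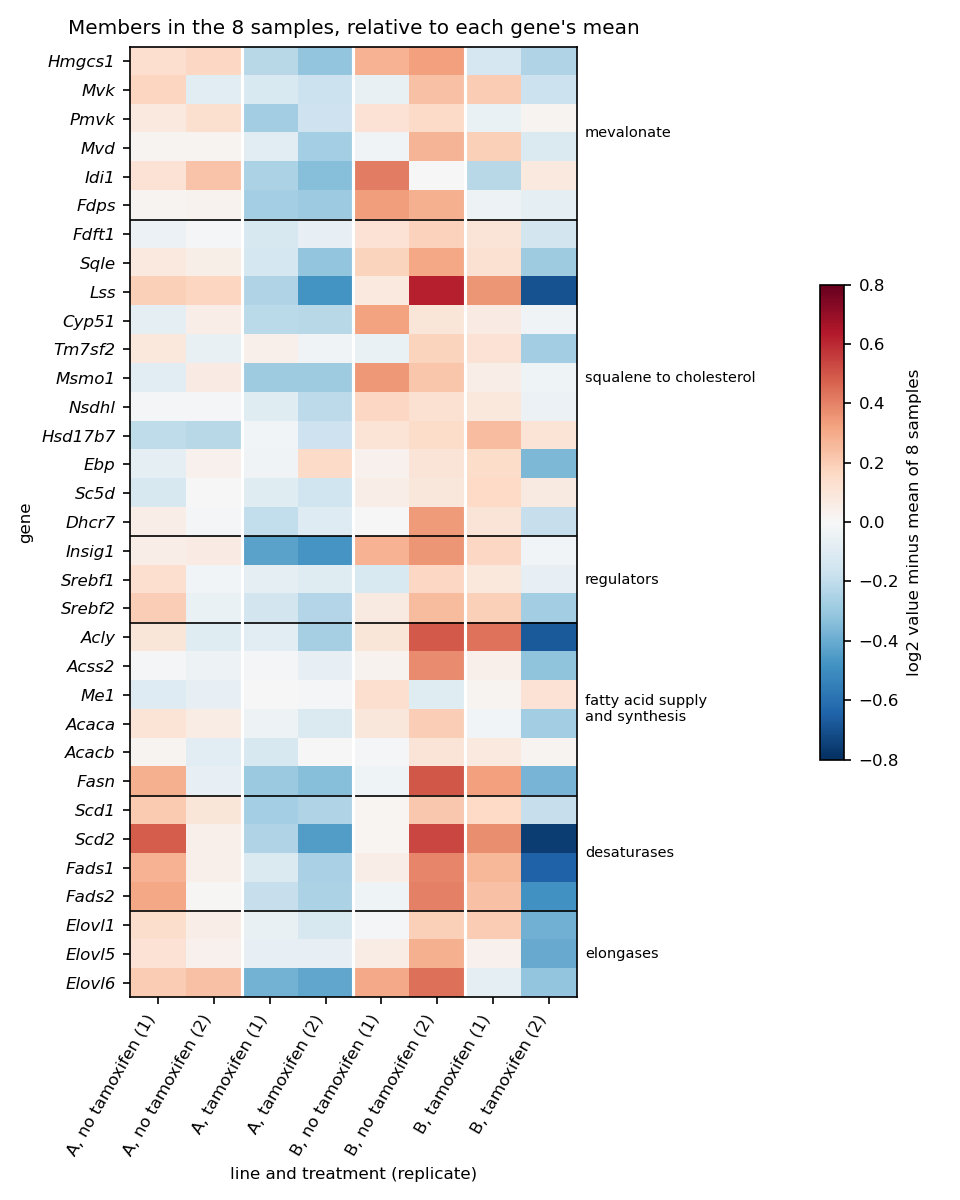
Log2 value of each of the 33 members (rows, grouped by step of the pathway) in each of the 8 arrays (columns), minus the gene's mean over the arrays, in colour. The columns of both line A samples with tamoxifen and of line B sample 2 with tamoxifen are below the mean in most rows, while in line B sample 1 with tamoxifen rows such as Scd2 and Acly are above the mean and Hmgcs1, Fdps and Elovl6 are below it.

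The mevalonate enzymes carry acetyl-CoA to farnesyl diphosphate. Over both lines 2 of the 6 fell, against 0.512% of all genes. All 6 differences were below 0, against 55.4% of all genes, and their median was -0.29. Hmgcs1, which condenses acetyl-CoA and acetoacetyl-CoA to HMG-CoA, was at 10.10 and 10.13 without and 9.74 and 9.65 with tamoxifen in line A, and at 10.24 and 10.29 without and 9.83 and 9.72 with it in line B. The 4 samples with tamoxifen were all lower than the 4 without, by -0.45 (SE 0.06, 95% interval -0.59 to -0.31, limma adjusted p = 0.00839, probe set 10412466). Without line A sample 2 with tamoxifen the adjusted p of Hmgcs1 was 0.0624.

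Fdps, which joins isoprenoid units into farnesyl diphosphate, was at 9.92 and 9.92 without and 9.62 and 9.61 with tamoxifen in line A, and at 10.23 and 10.18 without and 9.85 and 9.82 with it in line B. Replicates were close together, and the groups did not overlap. Its difference was -0.34 (SE 0.06, 95% interval -0.47 to -0.21, limma adjusted p = 0.0243, probe set 10499483). The call was lost when any 1 of the 4 line A samples or line B sample 2 without tamoxifen was left out (adjusted p 0.0599 to 0.124), and without a term for the line (0.224), while the difference stayed between -0.35 and -0.34.

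Idi1, the isomerase that makes dimethylallyl diphosphate, was at 10.54 and 10.65 without and 10.17 and 10.08 with tamoxifen in line A, and at 10.83 and 10.42 without and 10.20 and 10.50 with it in line B. The groups overlapped in line B alone, and the difference of -0.37 (SE 0.11, limma adjusted p = 0.173) did not pass. A second Idi1 probe set gave -0.38. Pmvk, which phosphorylates mevalonate phosphate, was at 7.45 and 7.50 without and 7.10 and 7.21 with tamoxifen in line A, and at 7.49 and 7.53 without and 7.32 and 7.39 with it in line B. Its groups did not overlap, yet the difference of -0.24 (SE 0.07, limma adjusted p = 0.187) did not pass. Mvk, the mevalonate kinase, and Mvd, the decarboxylase, had differences of -0.13 and -0.14 that did not pass.

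From squalene to cholesterol, 0 of the 11 enzymes passed limma's test. At an unadjusted p under 0.05, 4 were lower (Msmo1, Sqle, Cyp51 and Lss), against 4.32% of all genes. The difference was below 0 for 10 of the 11, against 55.4% of all genes, with a median of -0.13. Msmo1, which removes methyl groups from sterol precursors, was at 10.70 and 10.85 without and 10.50 and 10.50 with tamoxifen in line A, and at 11.13 and 11.01 without and 10.84 and 10.75 with it in line B. Within each line the groups did not overlap. Its difference was -0.28 (SE 0.07, limma adjusted p = 0.0917), and it passed when the arrays were quantile normalised again (adjusted p = 0.0364) or weighted (0.0101).

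Sqle, the squalene epoxidase, differed by -0.31 (SE 0.09) and Cyp51, the lanosterol demethylase, by -0.20 (SE 0.07). Lss, which folds squalene epoxide into lanosterol, had a difference of -0.53 with an SE of 0.20. It was at 8.01 and 7.99 without and 7.58 and 7.34 with tamoxifen in line A, and at 7.89 and 8.44 without and 8.17 and 7.12 with it in line B. The samples of line B were thus farther from each other than its groups were. Fdft1, the squalene synthase, Dhcr7, which reduces the last double bond of the pathway, Nsdhl, Tm7sf2 and Ebp had differences of -0.19 to -0.05. That of Sc5d, the sterol C5 desaturase, was -0.01. The sign of those of Tm7sf2, Ebp and Sc5d turned when single arrays were left out.

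Hsd17b7, a reductase of the demethylation steps, was the only sterol branch member with a difference above 0. It was at 10.01 and 9.99 without and 10.19 and 10.05 with tamoxifen in line A, and at 10.32 and 10.36 without and 10.46 and 10.32 with it in line B. The difference of 0.09 (SE 0.07, limma adjusted p = 0.762) did not pass, and the lines stood farther apart than the treatments.

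**Figure D2:**
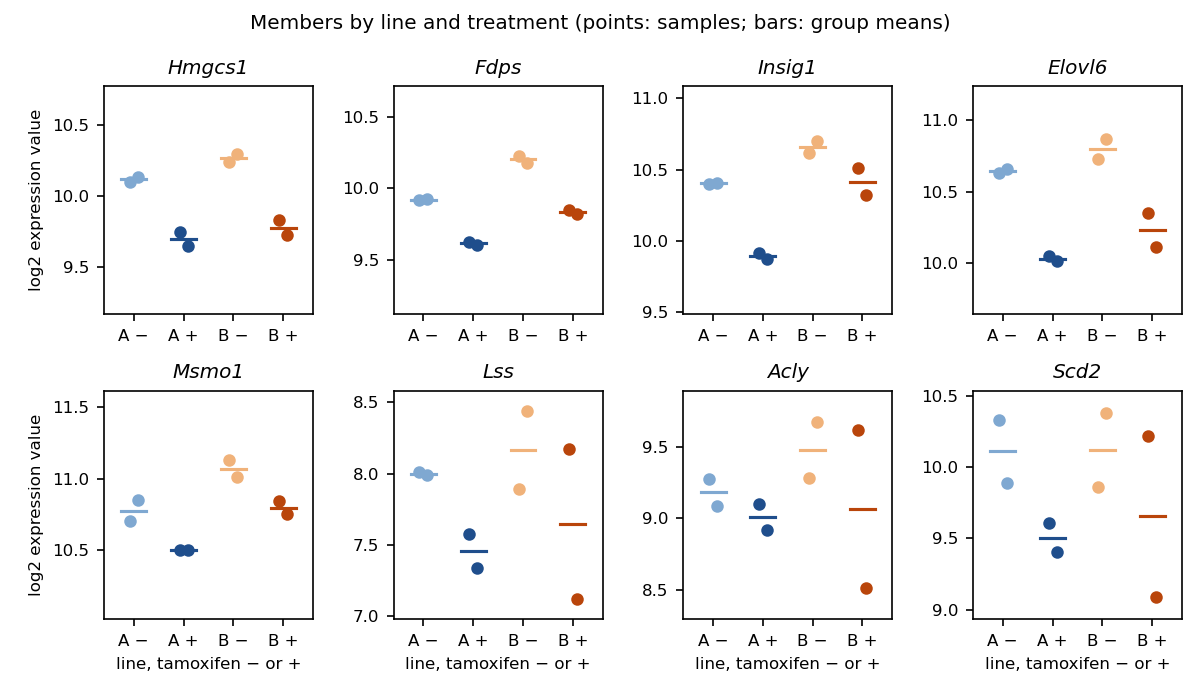
Log2 value (vertical axis) in each of the 8 samples (points) by line and treatment (horizontal axis, line A or B without (−) or with (+) tamoxifen), with the group mean as a bar, 1 panel for each of 8 genes. In Hmgcs1, Fdps, Elovl6 and Insig1 both samples with tamoxifen lie below both samples without it in each line, whereas Lss, Scd2 and Acly have 1 low sample in line B with tamoxifen.

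Among the regulators 1 of 3 fell, against 0.512% of all genes. Insig1, the retention protein of the SREBP complex and itself an SREBP target, was at 10.40 and 10.41 without and 9.92 and 9.88 with tamoxifen in line A, and at 10.62 and 10.70 without and 10.51 and 10.32 with it in line B. In line A the gap was wide, and in line B both samples with tamoxifen were also below both without it, but line B sample 1 with tamoxifen lay above the untreated line A samples. The difference over both lines was -0.38 (SE 0.08, 95% interval -0.55 to -0.21, limma adjusted p = 0.0473, probe set 10520362). That call was lost without any 1 line A sample, without line B sample 2 of either treatment, and when arrays were shifted to a common median (adjusted p 0.0627 to 0.237), and without a term for the line (0.417).

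Srebf2, which encodes the SREBP form that drives cholesterol synthesis, was at 8.38 and 8.13 without and 8.04 and 7.96 with tamoxifen in line A, and at 8.26 and 8.44 without and 8.38 and 7.91 with it in line B. Its difference was -0.23 (SE 0.11, limma adjusted p = 0.507). Srebf1, which encodes the forms that favour fatty acid synthesis, was at 7.82 and 7.67 without and 7.61 and 7.60 with tamoxifen in line A, and at 7.57 and 7.85 without and 7.78 and 7.62 with it in line B. Neither passed, and the Srebf1 difference of -0.08 (SE 0.08, limma adjusted p = 0.850) was the smaller. The arrays read transcripts and not the cleavage by which SREBP activity is set.

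In the supply and synthesis of fatty acids 0 of 6 members passed limma's test, and the median difference was -0.20. At an unadjusted p under 0.05, 1 was lower, against 4.32% of all genes. That 1 was Acaca, the acetyl-CoA carboxylase that commits acetyl-CoA to fatty acids. It was at 9.83 and 9.78 without and 9.68 and 9.61 with tamoxifen in line A, and at 9.81 and 9.92 without and 9.70 and 9.44 with it in line B. The groups did not overlap, and the difference was -0.23 (SE 0.08, limma adjusted p = 0.289). A second Acaca probe set gave -0.05, so the size depended on the probe set. Fasn, the fatty acid synthase, differed by -0.34 (SE 0.16) and Acly, which makes cytosolic acetyl-CoA from citrate, by -0.29 (SE 0.20).

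Acss2, which makes acetyl-CoA from acetate, was at 7.74 and 7.71 without and 7.74 and 7.69 with tamoxifen in line A, and at 7.78 and 8.13 without and 7.79 and 7.43 with it in line B. Its line A groups overlapped, and its difference over both lines was -0.18 (SE 0.11, limma adjusted p = 0.689). Me1, the NADP-linked malic enzyme, had a difference of 0.07, and Acacb, the carboxylase linked to the control of fatty acid oxidation, of -0.01, with a sign that turned when single arrays were left out.

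The 4 desaturases had differences of -0.53 to -0.27 with a median of -0.36, the lowest median of the 6 groups of members. Of the 4, 0 passed limma's test and 4 were lower at an unadjusted p under 0.05, against 4.32% of all genes. In line B sample 1 with tamoxifen all 4 lay above the mean of the untreated line B samples, by 0.04 to 0.10. In line B sample 2 all 4 lay below it, with differences of -1.03 to -0.30, so the line B part rested on sample 2. Scd1, a stearoyl-CoA desaturase that makes oleate, was at 10.71 and 10.60 without and 10.23 and 10.26 with tamoxifen in line A, and at 10.52 and 10.72 without and 10.66 and 10.32 with it in line B. The line A groups were well apart and the line B groups overlapped, with a difference over both lines of -0.27 (SE 0.10, limma adjusted p = 0.324).

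Scd2, its close relative, was at 10.33 and 9.89 without and 9.61 and 9.40 with tamoxifen in line A, and at 9.86 and 10.38 without and 10.22 and 9.09 with it in line B. Its difference was -0.53 (SE 0.22, limma adjusted p = 0.427), nearly the size of that of Elovl6 but with a wider spread between replicates. Without line B sample 1 with tamoxifen it was -0.78 with an adjusted p of 0.0366. Because the Scd genes are similar in sequence, probe sets may share signal between them. Fads1 and Fads2, which desaturate polyunsaturated fatty acids, differed by -0.38 (SE 0.17) and -0.34 (SE 0.15).

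Of the 3 elongases 1 fell, against 0.512% of all genes. Elovl6, which lengthens palmitate to stearate, was at 10.63 and 10.66 without and 10.05 and 10.01 with tamoxifen in line A, and at 10.73 and 10.87 without and 10.35 and 10.11 with it in line B. Every sample with tamoxifen was lower than every sample without, by -0.59 (SE 0.07, 95% interval -0.76 to -0.43, limma adjusted p = 0.00448, probe set 10495993). This call was kept under each of the 16 alternatives run.

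Elovl5, which lengthens polyunsaturated fatty acids, was at 10.17 and 10.09 without and 9.98 and 9.99 with tamoxifen in line A, and at 10.11 and 10.34 without and 10.09 and 9.65 with it in line B. Its difference was -0.25 (SE 0.10, limma adjusted p = 0.444). For Elovl1, which lengthens saturated very long chains, the difference was -0.19 (SE 0.11).

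**Figure D3:**
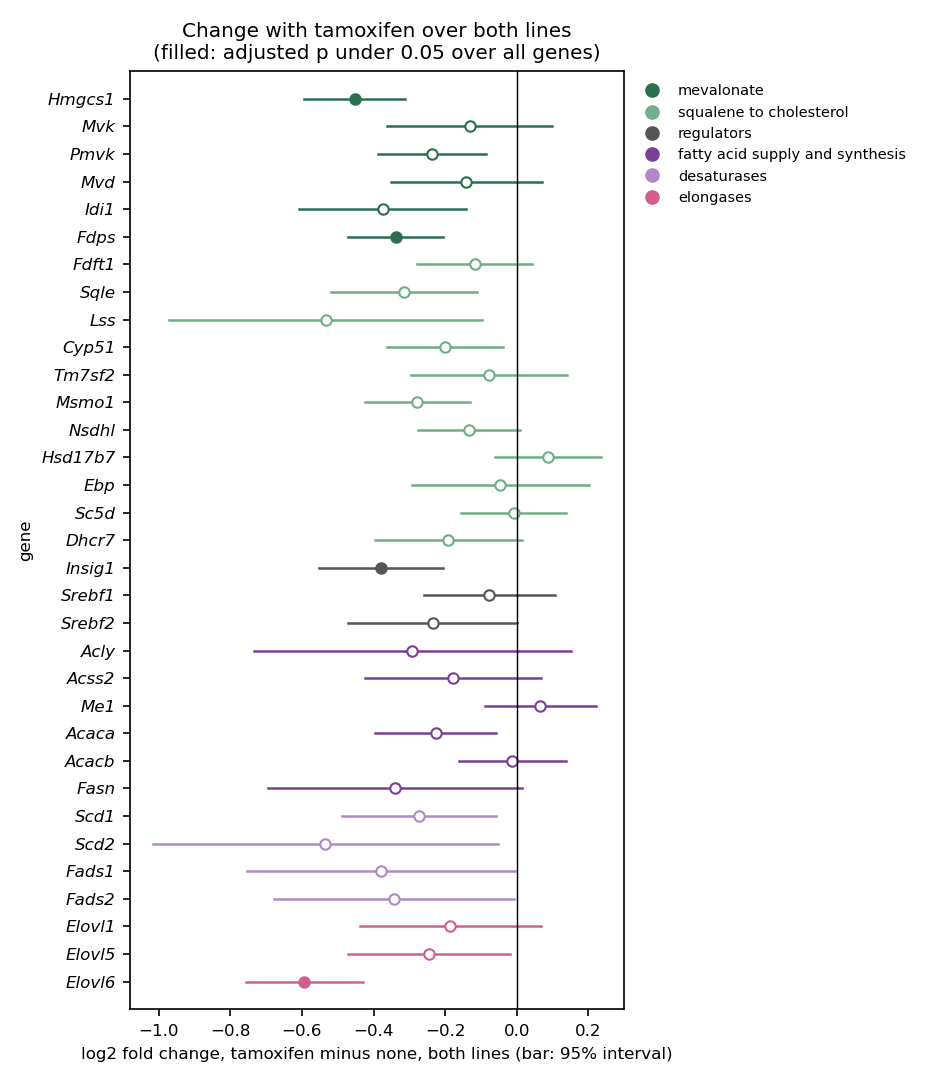
Tamoxifen minus no tamoxifen on the log2 scale (horizontal axis) over both lines for each of the 33 members (vertical axis), with 95% intervals from limma; filled marks are those with an adjusted p under 0.05. Elovl6, Hmgcs1, Fdps and Insig1 are filled, and Lss and Scd2, with differences of -0.53, have intervals that reach to -0.10 and -0.05.

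Tamoxifen within line A asked for the same difference in 1 line. None of the 33 members passed limma's test, against 0.502% of all genes, and 8 members were lower at an unadjusted p under 0.05, against 3.11%. Differences were below 0 for 30 members (55.4% of all genes), and in 25 members both samples with tamoxifen were below both without it (26.2% of all genes). The differences were -0.61 for Elovl6 (SE 0.11, limma adjusted p = 0.0604), -0.51 for Insig1 (SE 0.10, 0.0777), -0.42 for Hmgcs1 (SE 0.09, 0.116) and -0.31 for Fdps (SE 0.09, 0.262). When the line A samples were fitted alone, 6 members passed (Hmgcs1, Idi1, Lss, Scd1, Elovl6 and Insig1) with the spread of that line only, as did 2.72% of all genes.

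Tamoxifen within line B gave 0 of 33 members by limma's test, against 0.0201% of all genes, and 9 members were lower at an unadjusted p under 0.05, against 2.37%. That count was 22 without line B sample 1 with tamoxifen and 4 without line B sample 2 with tamoxifen. The differences were below 0 for 29 members (51.8% of all genes), and in 12 members the groups did not overlap with tamoxifen lower (12.9% of all genes). Elovl6 differed by -0.57 (SE 0.11), Hmgcs1 by -0.49 (SE 0.09), Fdps by -0.37 (SE 0.09) and Insig1 by -0.25 (SE 0.10), with limma adjusted p of 0.216, 0.216, 0.373 and 0.936. In 28 members the difference was below 0 in both lines, against 33.2% of all genes. In 12 members tamoxifen was lower without overlap in each line, 8 of them in the sterol branch, 3 in the fatty acid branch and 1 a regulator, against 4.7% of all genes.

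The single arrays show a gap between the line B samples with tamoxifen. Against the mean of the untreated samples of its own line, 29 of 33 members were lower in each line A sample with tamoxifen. Of all genes, 55.1% were lower in line A sample 1 and 53.3% in sample 2. In line B sample 2 with tamoxifen 31 of 33 were lower, against 47.4% of all genes, with medians of -0.29 in the sterol and -0.57 in the fatty acid branch. In line B sample 1 with tamoxifen only 15 of 33 were lower, with medians of -0.06 and 0.04, against 54.3% of all genes. Those 15 were 10 sterol branch genes (Hmgcs1, Pmvk, Idi1, Fdps, Fdft1, Sqle, Cyp51, Msmo1, Nsdhl and Dhcr7), 4 fatty acid branch genes (Acss2, Acaca, Elovl5 and Elovl6) and Insig1. The line B medians therefore rested on sample 2 for most of the fatty acid branch, and the cause of the gap between these samples was not tested.

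The members with the largest gap between the line B samples with tamoxifen, named after their values were seen, were Scd2, Acly, Lss and Fads1. Sample 2 was lower than sample 1 by -1.13 in Scd2, -1.11 in Acly, -1.05 in Lss and -0.92 in Fads1. Acly was at 9.62 in sample 1 and 8.51 in sample 2, with the untreated samples at 9.28 and 9.67. In Hmgcs1, Fdps and Elovl6 the same gap was -0.10, -0.03 and -0.25. Wide gaps between these samples were not confined to members: outside them the gap was -1.04 in Fads3, -0.665 in Pkm and 0.82 in Hacd2. Sample 2 was the lower of the pair in 30 of 33 members, against 42.4% of all genes. The untreated line B samples also differed, with sample 2 lower in 6 of 33 members, against 42.7% of all genes. The median size of the gap between the members' replicates was 0.21 and 0.31 in line B without and with tamoxifen, and 0.09 and 0.07 in line A. Over all genes it was also wider in line B, at 0.154 and 0.148, than in line A, at 0.106 and 0.078.

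**Figure D4:**
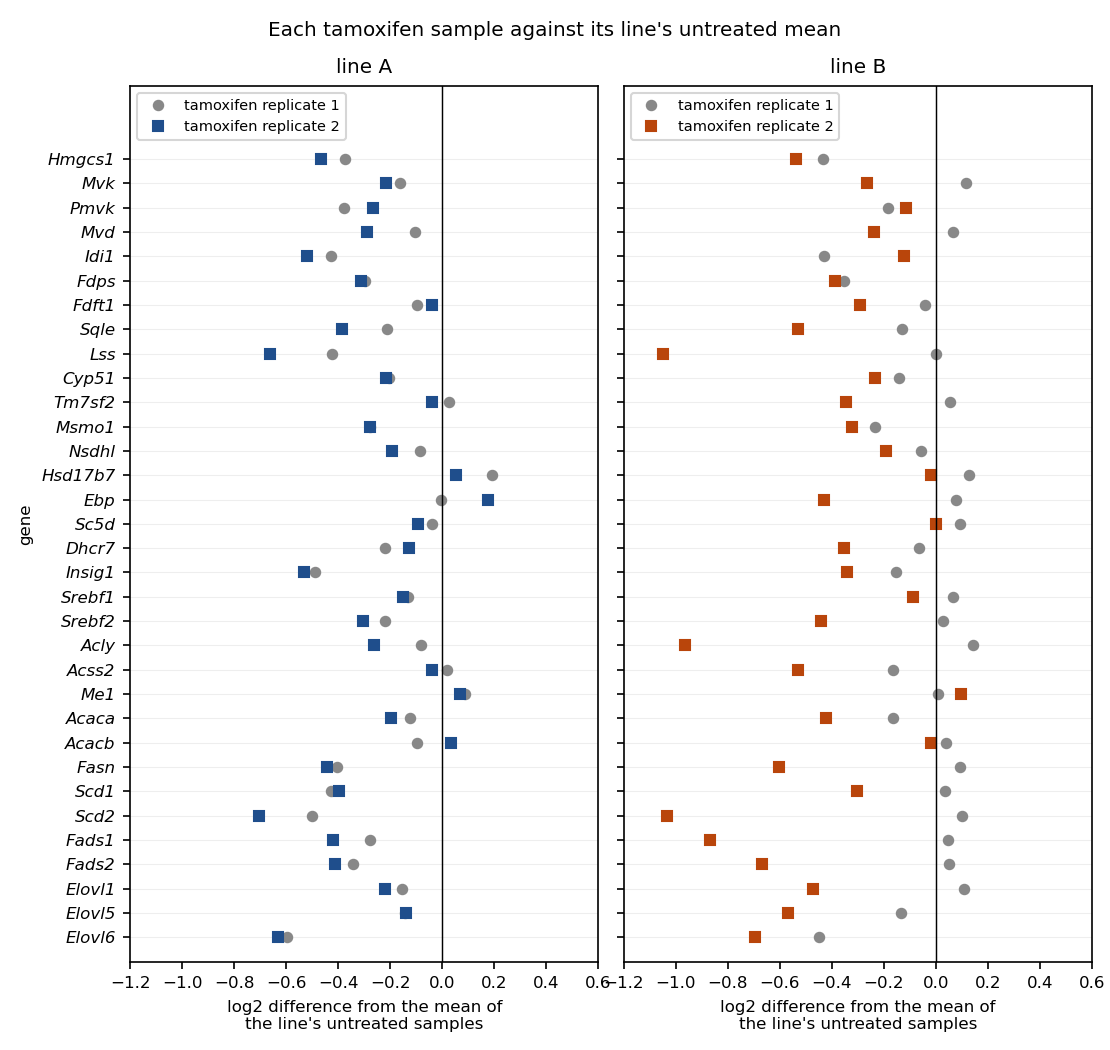
Log2 difference of each sample with tamoxifen from the mean of the untreated samples of its line (horizontal axis) for each member (vertical axis), with 1 panel per line and circles for sample 1 and squares for sample 2. In line A the marks of both samples lie close together, and in line B the circles lie around 0 for most members (fatty acid branch median 0.04) and the squares lower (-0.57).

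The sterol and fatty acid branches were then set side by side over the 4 groups, as means over their members and with no test. The sterol branch mean was 9.24 and 9.26 without and 9.07 and 9.02 with tamoxifen in line A, and 9.36 and 9.44 without and 9.31 and 9.08 with it in line B. The fatty acid branch mean was 9.65 and 9.50 without and 9.34 and 9.29 with tamoxifen in line A, and 9.54 and 9.79 without and 9.64 and 9.12 with it in line B. Both means were lower with tamoxifen in line A without overlap; in line B sample 1 with tamoxifen was among the untreated values for the fatty acid branch.

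Group means with tamoxifen minus those without were -0.21 and -0.20 for the sterol branch in lines A and B, and -0.26 and -0.28 for the fatty acid branch. The spread of branch means within groups was 0.09 (SD) for the sterol and 0.21 for the fatty acid branch, and the differences of the branches were closer to each other than that spread. Within the sterol branch the mevalonate enzymes differed by -0.32 and -0.24 and the later enzymes by -0.14 and -0.19. Within the fatty acid branch the desaturases differed by -0.44 and -0.33, the elongases by -0.31 and -0.37, and the supply and synthesis genes by -0.12 and -0.21.

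**Figure D5:**
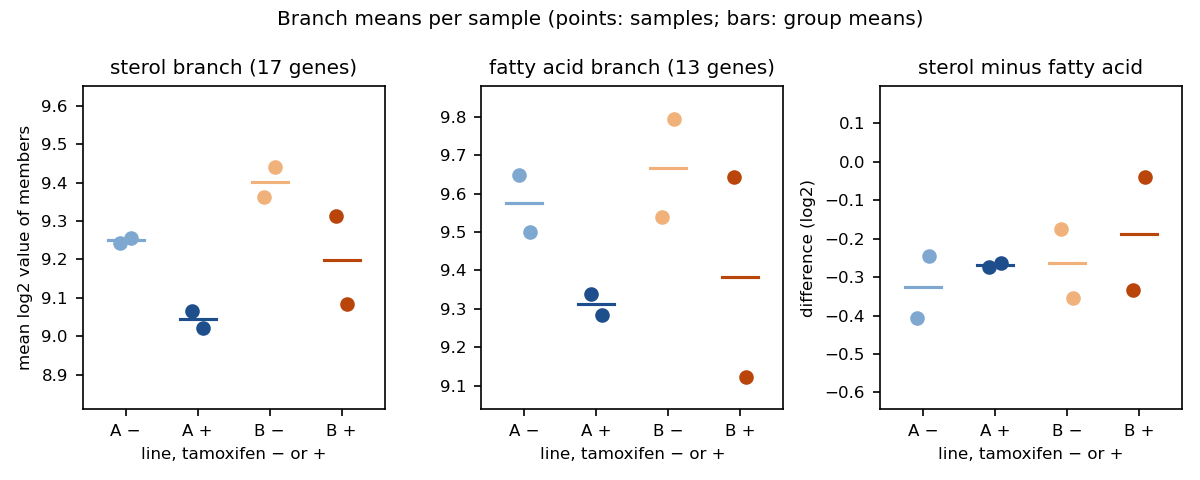
Mean log2 value over the 17 sterol branch members and the 13 fatty acid branch members (vertical axis) in each sample, and the first mean minus the second (right panel), by line and treatment (horizontal axis, A or B without (−) or with (+) tamoxifen), with samples as points and group means as bars. Group means of both branches are lower with tamoxifen in both lines, and in line B the fatty acid branch samples with tamoxifen are at 9.64 and 9.12.

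Whether the lines differed in their response was tested by the interaction. None of the 33 members passed limma's test and 0 had an unadjusted p under 0.05, against 0% and 2.83% of all genes. Insig1 had the smallest p, with a line B minus line A difference of 0.26 (SE 0.14, 95% interval -0.05 to 0.58, unadjusted p = 0.0939, limma adjusted p = 1.00). Acss2 and Scd1 followed, at -0.34 (SE 0.21) and 0.28 (SE 0.18). These intervals are wide, and a missed threshold does not show that the lines responded alike.

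Untreated line B cells were set against untreated line A cells. None of the 33 members passed limma's test, against 0.326% of all genes, and 4 were higher at an unadjusted p under 0.05, against 3.17%. The value was higher in line B for 30 of 33 members, while 45.0% of all genes were lower, and in 14 members the groups did not overlap with line B higher, against 17% of all genes. In the sterol branch 17 of 17 were higher, with a median of 0.15 against 0.01 for all genes, and in the fatty acid branch 11 of 13, with a median of 0.07. The fatty acid median rested on single arrays: it was -0.02 without line B sample 2, when 14 of the 33 members were lower in line B, and 0.23 without line B sample 1. The smallest p were those of Hsd17b7 at 0.33 (SE 0.10, limma adjusted p = 0.461), Fdps at 0.29 (SE 0.09, 0.499) and Msmo1 at 0.30 (SE 0.10, 0.630). For these 3 genes both line B samples lay above both line A samples.

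With tamoxifen in both lines, 0 of 33 members passed limma's test between the lines, against 0.532% of all genes, and 5 were higher in line B at an unadjusted p under 0.05, against 3.5%. Higher values in line B were found for 26 members, while 42.4% of all genes were lower, and 14 did not overlap, against 22.4% of all genes. Without line B sample 1 with tamoxifen 17 of 33 were lower in line B, 5 of them at an unadjusted p under 0.05, and the fatty acid branch median turned from 0.08 to -0.27. Without line B sample 2 with tamoxifen 0 of 33 were lower, and that median was 0.32. Insig1 came nearest to the threshold, at 0.51 (SE 0.10, limma adjusted p = 0.0816). The mean of 5 macrophage markers, 4 of which lay below the median of all values, also differed between the lines: 6.42 to 6.57 in line A, 6.77 to 6.81 in untreated line B and 6.96 to 7.03 in line B with tamoxifen. Its part in the members' line differences was not tested.

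Other genes of sterol handling were counted from lists of named genes over both lines. Of the sterol synthesis genes that are not members, 2 of 5 were measured and 0 passed limma's test: Erg28, a scaffold of the demethylation enzymes, at -0.24 (SE 0.07, adjusted p = 0.180, 1 of the 2 with an unadjusted p under 0.05) and Ggps1, which makes geranylgeranyl diphosphate, at 0.18. Of 9 sterol sensing and uptake genes 7 were measured and 0 passed, with 2 lower and 1 higher at an unadjusted p under 0.05 and a median of -0.05. Stard4, a sterol transfer protein and known SREBP target, was at 8.79 and 8.84 without and 8.56 and 8.44 with tamoxifen in line A, and at 9.19 and 9.18 without and 8.94 and 8.87 with it in line B. It was lower within each line without overlap, by -0.30 (SE 0.06, limma adjusted p = 0.0504), at the edge of the threshold. Tmem97 differed by -0.41 (SE 0.16) and Insig2, the second INSIG gene, by 0.19 (SE 0.08). Of 7 export and storage genes 5 were measured and 0 passed, with 1 higher at an unadjusted p under 0.05 and a median of 0.06. That gene, the cholesterol exporter Abca1, differed by 0.30 (SE 0.11, limma adjusted p = 0.325), with 0.55 in line A and 0.06 in line B.

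Of 14 other elongation and desaturation genes 1 fell, against 0.512% of all genes. It was Elovl7, an elongase of saturated long chains, at -0.48 (SE 0.10, limma adjusted p = 0.0446), with -0.55 in line A and -0.41 in line B, and the median of the list was 0.02. The medians of the lists of fatty acid activation and citrate export (8 of 10 measured), glycerolipid synthesis (7 of 7) and fatty acid oxidation (9 of 11) were -0.02, -0.03 and 0.05, and no gene of these lists passed limma's test. At an unadjusted p under 0.05 there was 1, the phosphatidate phosphatase gene Lpin1, at 0.29 (SE 0.11).

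Genes of cell division moved in the same samples. Of 10 listed proliferation genes 9 were measured, with a median over both lines of -0.56 against -0.01 for all genes. Of these 9, 5 fell (Mki67, Ccna2, Ect2, Kif23 and Bub1), against 0.512% of all genes. Mki67, a marker of cycling cells, differed by -0.70 (SE 0.09, limma adjusted p = 0.00587). The list's mean per sample was 9.85 to 9.91 without tamoxifen, 9.24 to 9.29 with it in line A and 9.44 to 9.51 with it in line B, and its part in the members' differences was not tested. In line B the proliferation mean and the sterol branch mean were below both untreated values in both samples with tamoxifen, and the fatty acid branch mean in sample 2 only. Those 2 samples ranked in opposite order. The proliferation mean was 9.44 in sample 1 and 9.51 in sample 2, while the sterol branch mean was 9.31 and 9.08 and the fatty acid branch mean 9.64 and 9.12. Of 7 measured adipocyte markers 0 passed limma's test and 1 was lower at an unadjusted p under 0.05. Only 4 of the 7 lay below the median of all values. The list's mean was 7.01 to 7.29 over the samples, with Adipoq, 1 of the dim ones, at 4.55 to 4.97.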

How the data were processed

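RNA from 8 samples was hybridised to Affymetrix arrays. The deposited values are log2 expression values that the authors made by RMA in Affymetrix Expression Console, per the series' design text, and they lay between 2.61 and 14.12; software versions are not given in the sources used here. Of 35556 probe sets, 21789 had 1 gene symbol in the platform annotation, 1621 had several and 12146 had none; 21698 were matched to RefSeq by gene identifier, which changed 0 symbols. The brightest probe set stood for each of 999 genes with more than 1, which left 19938 genes, with no filter on dim genes.

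Tests used R 4.3.3 and its package limma 3.58.1 (functions lmFit and eBayes), across all genes, with Benjamini-Hochberg adjustment and a threshold of 0.05. Tamoxifen over both lines was fitted with the line as a term, and the other comparisons as contrasts of 4 group means, so that all groups share 1 estimate of the spread. The code was tested on simulated data. Groups follow the labels, and sample numbers within a group are in accession order. Array data carry no read depth, and the 2 samples per group limit the precision. The members and gene lists were chosen with earlier results of these data known. Values in every sample are given for members past the threshold, the 5 of each branch with the smallest p over both lines, the 3 with the smallest p between untreated lines and for the interaction, the regulators, Scd1 and Scd2, and for some members named after their values were seen; other lists give up to 3 members. Alternatives were other scalings, a filter on the 30% dimmest genes, array weights, a trended robust fit, the mean of probe sets, other terms for the line, and leaving out each sample. The short sterol element was added after the data were seen.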

Additional observations from a re-analysis of the deposited data

How the results depend on the processing

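Over both lines 4 members passed. With array weights 9 passed, as did 4.93% of all genes against 1.32% without weights, and without a term for the line 2 passed (0.662% of all genes). With each sample left out in turn the number lay between 1 and 6. It was 1 without line A sample 2 with tamoxifen (Elovl6) and 2 without any other line A sample. In line A, where 0 passed, 5 passed with array weights (2.63% of all genes), 6 when line A was fitted alone (2.72%), and 0 to 1 with a sample left out; the 1 was Elovl6, without either line B sample with tamoxifen. In line B, for the interaction and between lines, 0 passed limma's test under the alternatives run. At an unadjusted p under 0.05, over all alternatives, 3 to 22 members were lower with tamoxifen in line B, 0 to 5 were lower and 0 to 3 higher for the interaction, 2 to 5 were higher in untreated line B, and 1 to 15 were higher and 0 to 5 lower in line B with tamoxifen.

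With a sample left out, the line B median of the sterol branch (-0.18) lay between -0.29 and -0.058, and that of the fatty acid branch (-0.31) between -0.57 and 0.038, its value without line B sample 2 with tamoxifen. Between the untreated lines the fatty acid median (0.07) lay between -0.022 and 0.23. Between the lines with tamoxifen the sterol median (0.19) lay between 0.063 and 0.26 and the fatty acid median (0.08) between -0.27 and 0.32. Over both lines, 4 members with differences near 0 turned in sign. With a sample left out, Tm7sf2 lay between -0.14 and 0.016, Ebp between -0.12 and 0.081, Sc5d between -0.039 and 0.029 and Acacb between -0.040 and 0.018; with array weights Ebp was at 0.021 and Acacb at 0.0091. No other member's difference over both lines turned in sign. The lone line A fit takes no spread from line B by construction, and leaving out a sample leaves fewer; for the other changes the cause was not tested. No paired analysis was possible because the labels number no replicates. Groups of 2 arrays limit what could pass.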
